A study of Mus musculus with 6 samples.

Results

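The genes described here encode mitochondrial carriers, the proteins of solute carrier family 25, together with the uncoupling homologue Ucp3. They were chosen by a rule on gene names, set with earlier results of these data known. It took every gene of the array whose platform symbol starts with Slc25a, without Slc25a1 and Slc25a20, plus the uncoupling homologues Ucp2 and Ucp3. This gave 43 genes, 42 of them Slc25a genes, among 17720 genes measured. A gene that the definition covers but that no probe set with a single gene symbol measured, Ucp2 among them, is not analysed here. RNA of mouse adipocytes was measured on oligonucleotide arrays in 3 groups of 2 arrays. Bone marrow-derived adipocytes were sorted by flow cytometry out of the floating adipocytes of gonadal fat in marrow-transplanted mice. They carried a marker of the donor, which was green fluorescent protein (GFP) on array 1 and beta-galactosidase (LacZ, detected with the substrate FDG) on array 2. White adipocytes came from gonadal fat and brown adipocytes from intrascapular fat, as the labels spell it. Collagenase digestion, flotation and sorting are described for all groups. For each sample at least 6 sorts of about 5000 adipocytes were pooled, and the RNA was amplified before labelling. The labels used here do not give strain, sex, age or the number of mice, or whether the mice that gave white and brown fat had been transplanted. They call the arrays of a group biological replicates without naming animals, and the marrow-derived replicates differ in their marker.

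Mitochondrial carriers sit in the inner membrane of mitochondria and exchange nucleotides, phosphate, carboxylic acids, amino acids and cofactors between the cytosol and the matrix. The ADP/ATP carrier and the phosphate carrier supply ATP synthase with its substrates, the aspartate/glutamate and oxoglutarate carriers run the malate-aspartate shuttle that brings reducing equivalents into the matrix, and the uncoupling proteins form a branch of the same family. Brown fat is rich in mitochondria and makes heat through Ucp1, the founding uncoupling protein, whereas white fat stores lipid and holds fewer mitochondria.

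The promoter windows of the 4 carriers with the largest differences between marrow-derived and brown adipocytes are shown because these genes carry the main contrast below. Each window runs from 250 bases before to 50 bases after the gene start (RefSeq, GRCm38.p6), 5′ to 3′ on the strand of the gene. Capitals mark AAGGTCA on either strand, the extended nuclear receptor half-site that estrogen-related receptors bind; no other motif was searched.

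Ucp3 (chr7:100472741-100473040, forward strand): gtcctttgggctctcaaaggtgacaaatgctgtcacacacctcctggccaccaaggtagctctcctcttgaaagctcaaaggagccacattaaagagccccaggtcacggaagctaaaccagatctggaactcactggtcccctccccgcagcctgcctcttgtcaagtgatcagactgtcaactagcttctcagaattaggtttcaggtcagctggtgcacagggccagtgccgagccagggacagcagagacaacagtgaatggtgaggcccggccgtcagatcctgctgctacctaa

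Slc25a48 (chr13:56438105-56438404, forward strand): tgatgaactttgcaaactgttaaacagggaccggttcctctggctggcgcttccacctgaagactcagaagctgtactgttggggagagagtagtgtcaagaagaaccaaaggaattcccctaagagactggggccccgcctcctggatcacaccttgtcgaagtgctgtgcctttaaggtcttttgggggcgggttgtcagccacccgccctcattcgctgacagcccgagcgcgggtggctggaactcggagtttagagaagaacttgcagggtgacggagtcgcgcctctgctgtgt

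Slc25a42 (chr8:70212232-70212531, reverse strand): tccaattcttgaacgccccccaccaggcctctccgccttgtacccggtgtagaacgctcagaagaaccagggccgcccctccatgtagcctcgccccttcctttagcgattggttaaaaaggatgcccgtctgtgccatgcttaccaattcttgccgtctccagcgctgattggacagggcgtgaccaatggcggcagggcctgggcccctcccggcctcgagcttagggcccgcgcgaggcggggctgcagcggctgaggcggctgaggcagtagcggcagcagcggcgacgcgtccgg

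Slc25a34 (chr4:141623785-141624084, reverse strand): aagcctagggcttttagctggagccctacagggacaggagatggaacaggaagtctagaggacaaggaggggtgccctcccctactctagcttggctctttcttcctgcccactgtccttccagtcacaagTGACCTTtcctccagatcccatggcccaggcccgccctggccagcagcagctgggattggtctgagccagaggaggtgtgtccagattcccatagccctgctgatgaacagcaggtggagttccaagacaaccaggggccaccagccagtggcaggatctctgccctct

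Of these windows, that of Slc25a34 held the motif, on the reverse strand and starting 119 bases before the gene start. It was the only match among 42 windows of 33 carrier genes with an entry (2.38%), while 4.72% of all 32851 windows of 300 bases held a match. The share of G and C was 55% for Ucp3, 56.3% for Slc25a48, 59% for Slc25a34 and 65.7% for Slc25a42. A match describes the letters in this window and nothing about binding.

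The lowest deposited log2 value was 1.67, and the medians of the arrays lay between 5.46 and 5.72. Near the floor and the top of the scale differences are compressed. Adipocyte markers were high in all groups. Their mean log2 value over 5 markers was 12.12 on the GFP and 11.60 on the LacZ array. It was 12.74 and 12.89 on the white and 12.64 and 12.67 on the brown arrays. Of the 5, limma called 2 lower in marrow-derived than in white and 1 lower than in brown adipocytes, beside 13.6% and 11.7% of all genes. These were Lipe (-1.90 against white, -1.73 against brown) and Cidec (-1.76 against white). The part of these markers in the results was not tested. Ucp1 stood at 7.68 and 4.93 on the marrow-derived, 6.43 and 4.84 on the white and 13.58 and 13.53 on the brown arrays. The mean of 4 white adipocyte markers was 8.01 on the GFP and 8.12 on the LacZ array, 11.70 and 12.14 on the white and 8.57 and 8.81 on the brown arrays. Markers of other cells were present too: the mean of 12 macrophage markers was 11.39 on the GFP and 8.83 on the LacZ array, 11.45 and 9.96 on the white and 8.90 and 8.26 on the brown arrays, and that of 8 endothelial markers was 11.08 on the GFP and 11.74 on the LacZ array, 7.95 and 6.98 on the white and 10.53 and 10.06 on the brown arrays. The part of such cells in the results was not tested. In RNA from bulk samples, fewer cells of a type and less RNA per cell cannot be told apart.

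More carrier genes were lower than higher in marrow-derived adipocytes against either conventional type, and more were lower than higher in white than in brown adipocytes. In marrow-derived minus white, limma called 11 of the 43 genes lower and 2 higher (adjusted p under 0.05), which is 25.6% and 4.65%, beside 13.6% and 12.2% of all genes (13 genes or 30.2% in either direction, beside 25.8%). In marrow-derived minus brown it called 16 lower and 3 higher, 37.2% and 6.98%, beside 11.7% and 8.71% of all genes (19 genes or 44.2% in either direction, beside 20.4%). In white minus brown it called 5 lower (11.6%) and 0 higher, beside 5.34% and 3.87% of all genes, and 9.21% in either direction. At an unadjusted p under 0.05 limma had 4 higher and 12 lower there. The share of all genes at that threshold is not given here. The ordinary linear model called 0 of the 43 after adjustment, and 0 of all genes. The median log2 difference over all 43 was -0.41, -0.45 and -0.11 in these comparisons, and over all genes it was -0.07, 0.02 and 0.02. In all, 22 of the 43 were called in at least 1 comparison, beside 34.1% of all genes. The comparisons share arrays, so their counts are not independent.

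With 2 arrays a group these counts moved with single arrays, as did the higher and lower calls over all genes in each comparison. The lower calls against brown were 4 without brown replicate 1 and 4 without brown replicate 2, and those of white minus brown were 0 and 0. Over all genes the lower calls against brown went from 2068 to 355 and 239 without the first and the second of these arrays, and those of white minus brown from 946 to 7 and 5. The lower calls against white were 3 without white replicate 2 and 7 without the LacZ array or either brown array; over all genes they went from 2409 to 850, 1793 and 1372. In white minus brown there were 9 lower calls without either marrow-derived array and 2 without white replicate 1. The higher calls against brown were 0 without either marrow-derived or either brown array. The higher calls against white were 0 without white replicate 2 or either brown array and 1 without the LacZ array or white replicate 1.

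**Figure D1:**
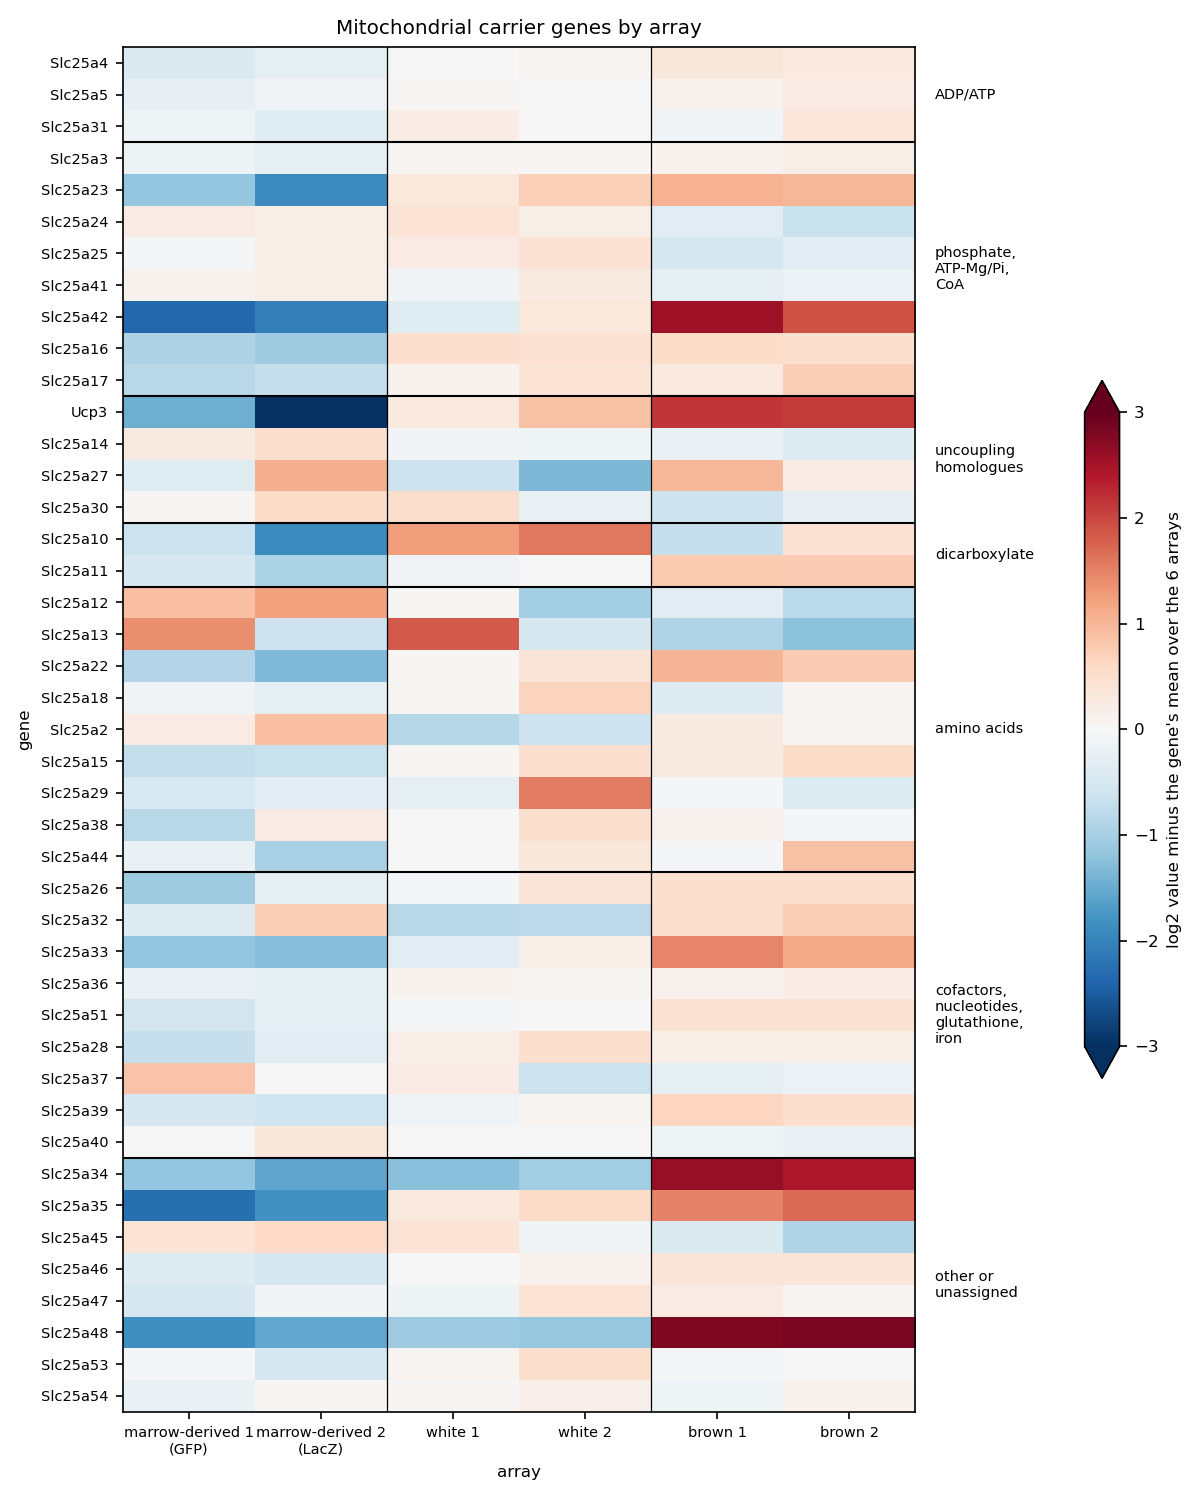
Log2 value of each of the 43 genes (rows, grouped by the cargo or role of the carrier) on each of the 6 arrays (columns), minus that gene's mean over the 6 arrays; blue is below and red above the mean, and the colour scale ends at 3 in either direction. Ucp3, Slc25a42, Slc25a34 and Slc25a48 are deep red on both brown arrays, and Slc25a12 is red on both marrow-derived arrays.

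Among the uncoupling homologues, Ucp3, the paralogue of Ucp1 best known from skeletal muscle and brown fat, was lower in marrow-derived than in white or brown adipocytes. Its log2 values were 6.13 and 3.65 on the marrow-derived, 7.89 and 8.47 on the white and 9.74 and 9.68 on the brown arrays. The groups did not overlap, but the marrow-derived arrays lay 2.48 apart, the largest gap of any of the 43 genes within a group. Ucp3 was lower than in white (log2 difference ± SE with 2 arrays a group, -3.29 ± 0.79, adjusted p = 0.0352) and lower than in brown adipocytes (-4.82 ± 0.79, adjusted p = 0.0166), while white against brown did not pass (-1.53 ± 0.79, adjusted p = 0.298). The sizes rest on the marrow-derived arrays: without the GFP array the differences were -4.53 against white and -6.06 against brown, and without the LacZ array -2.05 and -3.58. The LacZ value lies near the floor, where differences are compressed, so no fold is given. The call against white was lost without any array but the GFP array or the LacZ array (adjusted p = 0.0837 to 0.146). The call against brown was lost without brown replicate 1 (adjusted p = 0.0976) or brown replicate 2 (adjusted p = 0.115). A second Ucp3 probe set had closer marrow-derived replicates, with 4.27 and 4.33 on the marrow-derived, 6.68 and 7.03 on the white and 7.94 and 8.23 on the brown arrays. In a limma fit of all probe sets it was lower against white (-2.55, adjusted p = 0.00327) and brown (-3.78, adjusted p = 0.00164), and white was lower than brown (-1.23, adjusted p = 0.0283). Brown adipocyte markers also differed between the marrow-derived arrays. Their mean over 7 genes was 7.47 on the GFP and 5.34 on the LacZ array. It was 7.61 and 7.01 on the white and 11.66 and 11.95 on the brown arrays. Of the 7, 6 were higher on the GFP array, with the widest gaps for Cidea (8.53 and 3.66) and Cox8b (9.35 and 5.48). Prdm16 went the other way, with 9.76 on the GFP and 10.50 on the LacZ array. On the white arrays 6 of the 7 were higher on replicate 1, where Ucp3 was lower. Other lists also differed between the marrow-derived arrays. Higher on the GFP array were 12 of 12 macrophage, 4 of 5 adipocyte and 5 of 5 T and B cell markers, but 0 of 8 endothelial ones. The part of these markers in the level of Ucp3 was not tested.

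The other uncoupling homologues analysed here are Slc25a14 and Slc25a27, known from brain, and Slc25a30, known from kidney. Slc25a14 stood at 10.02 and 10.26 on the marrow-derived, 9.66 and 9.63 on the white and 9.55 and 9.36 on the brown arrays, so the marrow-derived arrays were above all others. It was 1.61-fold higher than in brown adipocytes (0.69 ± 0.17, adjusted p = 0.0484). The Slc25a14 call against brown was lost without any 1 of the 6 arrays (adjusted p = 0.0599 to 0.236). Slc25a27 and Slc25a30 did not pass in any comparison, and the probe sets of Slc25a27 disagreed. The one with the highest mean gave -0.25 ± 0.57 against brown. A second read 6.43 and 6.06 on the marrow-derived, 3.66 and 3.40 on the white and 4.70 and 4.99 on the brown arrays and was higher in marrow-derived than in white (2.71, adjusted p = 0.00332) and brown cells (1.40, adjusted p = 0.0151) in the fit of all probe sets.

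The ADP/ATP carriers, which export ATP from the matrix in exchange for ADP, differed little. Slc25a4, the isoform of heart and muscle, was at 12.06 and 12.20 on the marrow-derived, 12.50 and 12.58 on the white and 12.83 and 12.79 on the brown arrays. It was 1.60-fold lower in marrow-derived than in brown adipocytes (-0.68 ± 0.16, adjusted p = 0.0368). The Slc25a4 call against brown was lost without any 1 of the 6 arrays (adjusted p = 0.0648 to 0.171). Slc25a5, a widely expressed isoform, was at 12.48 and 12.62 on the marrow-derived, 12.76 and 12.72 on the white and 12.84 and 12.97 on the brown arrays and passed in no comparison (-0.35 ± 0.16, adjusted p = 0.184 against brown). The groups of Slc25a4 and of Slc25a5 did not overlap, with marrow-derived lowest and brown highest, and both lie near the top of the range. The dimmest probe sets of these genes gave larger differences against brown in the fit of all probe sets (-1.51, adjusted p = 0.0159 for Slc25a4 and -1.39, adjusted p = 0.0166 for Slc25a5). Slc25a31, the testis isoform, lay near the floor, at 2.48 and 2.26 on the marrow-derived, 2.83 and 2.59 on the white and 2.52 and 2.97 on the brown arrays.

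The phosphate carrier Slc25a3 was at 12.06 and 11.95 on the marrow-derived, 12.28 and 12.25 on the white and 12.31 and 12.42 on the brown arrays and did not pass (-0.26 ± 0.15, adjusted p = 0.289 against white and -0.36 ± 0.15, adjusted p = 0.166 against brown). Its second probe set read 9.05 and 9.33 on the marrow-derived, 8.23 and 6.90 on the white and 7.72 and 8.06 on the brown arrays and was higher than in white in the fit of all probe sets (1.63, adjusted p = 0.049). No direction can be given for Slc25a3 from these probe sets.

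Of 8 carriers of phosphate, ATP-Mg and coenzyme A, 4 were lower in marrow-derived than in white and 4 lower than in brown adipocytes, beside 13.6% and 11.7% of all genes. Slc25a42, which brings coenzyme A into the matrix, was at 5.33 and 5.62 on the marrow-derived, 7.32 and 7.996 on the white and 10.23 and 9.60 on the brown arrays. The marrow-derived values were low, close to the medians of the arrays (5.46 to 5.72). The 3 groups were apart, and each step passed: 4.54-fold lower in marrow-derived than in white (-2.18 ± 0.33, adjusted p = 0.0106), 4.77-fold lower in white than in brown (-2.25 ± 0.33, adjusted p = 0.0201) and 21.7-fold lower in marrow-derived than in brown (-4.44 ± 0.33, adjusted p = 0.00305). Each call of the marrow-derived group held without each of the 6 arrays, and that of white minus brown was lost without white replicate 1 (adjusted p = 0.0627), brown replicate 1 (adjusted p = 0.147) or brown replicate 2 (adjusted p = 0.0875). A second, dimmer probe set of Slc25a42 was lower against brown (-1.87, adjusted p = 0.0154) and did not pass against white (-0.50, adjusted p = 0.299) or between white and brown (-1.37, adjusted p = 0.0546).

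Slc25a16, another carrier linked to coenzyme A, was at 8.49 and 8.35 on the marrow-derived, 9.94 and 9.89 on the white and 9.97 and 9.91 on the brown arrays. White and brown arrays overlapped, and marrow-derived adipocytes were 2.81-fold below white (-1.49 ± 0.16, adjusted p = 0.00526) and 2.87-fold below brown (-1.52 ± 0.16, adjusted p = 0.0055). The call against white held without each of the 6 arrays. The call against brown was lost without brown replicate 1 (adjusted p = 0.0556) or brown replicate 2 (adjusted p = 0.0568). Slc25a23, a calcium-regulated exchanger of ATP-Mg for phosphate, was at 8.44 and 7.70 on the marrow-derived, 9.90 and 10.31 on the white and 10.64 and 10.59 on the brown arrays. It was 4.09-fold lower than in white (-2.03 ± 0.30, adjusted p = 0.0099) and 5.84-fold lower than in brown (-2.54 ± 0.30, adjusted p = 0.00737). The first call was lost without white replicate 2 (adjusted p = 0.0529), and the second was lost without brown replicate 1 (adjusted p = 0.0646) or brown replicate 2 (adjusted p = 0.0707). Slc25a17, the family member of the peroxisomal membrane, was at 8.20 and 8.33 on the marrow-derived, 9.15 and 9.45 on the white and 9.34 and 9.78 on the brown arrays. It was lower than in white (-1.04 ± 0.22, adjusted p = 0.0263). The Slc25a17 call against white was lost without any array but brown replicate 1 or brown replicate 2 (adjusted p = 0.0544 to 0.123). It was lower than in brown (-1.30 ± 0.22, adjusted p = 0.0184). The Slc25a17 call against brown was lost without the GFP array (adjusted p = 0.0504), brown replicate 1 (adjusted p = 0.0623) or brown replicate 2 (adjusted p = 0.112).

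The remaining ATP-Mg carriers Slc25a24, Slc25a25 and Slc25a41 did not pass. In all 3 every brown array lay below every white and marrow-derived array, unlike in Slc25a23; this order was found in 14% of all genes. Slc25a24 was at 11.26 and 11.19 on the marrow-derived, 11.41 and 11.19 on the white and 10.66 and 10.33 on the brown arrays (0.73 ± 0.19, adjusted p = 0.0523 for marrow-derived minus brown). Its second, dim probe set was higher than in brown both in marrow-derived (1.96, adjusted p = 0.023) and in white adipocytes (2.32, adjusted p = 0.0248) in the fit of all probe sets.

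The dicarboxylate carrier Slc25a10, which exchanges malate or succinate for phosphate, was at 9.62 and 8.36 on the marrow-derived, 11.52 and 11.85 on the white and 9.57 and 10.71 on the brown arrays. Both white arrays lay above all others. Marrow-derived adipocytes were 6.48-fold below white (-2.70 ± 0.55, adjusted p = 0.0225), whereas marrow-derived and brown arrays overlapped (-1.15 ± 0.55, adjusted p = 0.201). Without the GFP array the difference was -3.33 and without the LacZ array -2.07. The call against white was lost without the LacZ array (adjusted p = 0.0558), white replicate 1 (adjusted p = 0.0626) or white replicate 2 (adjusted p = 0.102), and the second probe set gave -3.36, adjusted p = 0.0182 there. The oxoglutarate/malate carrier Slc25a11 ordered the groups differently, with 8.99 and 8.52 on the marrow-derived, 9.37 and 9.47 on the white and 10.27 and 10.23 on the brown arrays. It was 2.82-fold lower in marrow-derived than in brown adipocytes (-1.49 ± 0.21, adjusted p = 0.011). The Slc25a11 call against brown was lost without brown replicate 1 (adjusted p = 0.0784) or brown replicate 2 (adjusted p = 0.0873). It did not pass against white (-0.66 ± 0.21, adjusted p = 0.0738).

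Of 9 amino acid carriers, 2 were lower and 2 higher in marrow-derived than in white adipocytes, beside 13.6% and 12.2% of all genes. Against brown 2 were lower and 1 higher, beside 11.7% and 8.71%. Slc25a12, the aspartate/glutamate carrier of excitable tissues and a part of the malate-aspartate shuttle, was at 9.03 and 9.36 on the marrow-derived, 8.18 and 7.11 on the white and 7.80 and 7.32 on the brown arrays. Both marrow-derived arrays lay above all others. It was 2.92-fold higher than in white (1.55 ± 0.40, adjusted p = 0.0428) and 3.10-fold higher than in brown (1.63 ± 0.40, adjusted p = 0.0442), the largest positive difference of the 43 genes in each of these comparisons. The call against white was lost without any array but white replicate 1 (adjusted p = 0.0744 to 0.13). That against brown was lost without any array but white replicate 1 or white replicate 2 (adjusted p = 0.0778 to 0.232). A second probe set read 7.26 and 6.70 on the marrow-derived, 4.07 and 3.65 on the white and 4.94 and 4.67 on the brown arrays and was higher than in white (3.12, adjusted p = 0.00341) and brown (2.18, adjusted p = 0.00799) in the fit of all probe sets. All 8 endothelial markers were called higher in marrow-derived than in white adipocytes too, and 2 of them higher than in brown. Beside these stand 12.2% and 8.71% of all genes. Between white and brown adipocytes Slc25a12 did not pass (0.08 ± 0.40, adjusted p = 0.924 in limma). There 7 of the endothelial markers were lower in white, beside 5.34% of all genes. The part of these markers in the level of Slc25a12 was not tested.

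Slc25a13, the aspartate/glutamate carrier of liver and the paralogue of Slc25a12, separated arrays within groups. It was at 8.64 and 6.62 on the marrow-derived, 9.08 and 6.76 on the white and 6.34 and 6.02 on the brown arrays, and passed in no comparison (adjusted p = 0.859, 0.334 and 0.322 in limma). The GFP array and white replicate 1, where Slc25a13 was high, also had the highest macrophage markers. All 12 of these were higher on the GFP than on the LacZ array and higher on white replicate 1 than on white replicate 2, for example Adgre1 with 11.79 and 8.48 on the marrow-derived, 11.70 and 9.58 on the white and 8.81 and 7.26 on the brown arrays. Other lists ran the same way. Of 7 brown adipocyte markers, 6 were higher on replicate 1 in the marrow-derived and 6 in the white group. Of 5 T and B cell markers, 5 and 4 were. Of 8 endothelial markers, 0 were higher on the GFP array and 8 on white replicate 1. The part of any of these markers in the level of Slc25a13 was not tested. Slc25a29, a carrier of basic amino acids, had a single high array, white replicate 2. It was at 5.46 and 5.56 on the marrow-derived, 5.63 and 7.44 on the white and 5.85 and 5.51 on the brown arrays. It passed in no comparison. Its second probe set was lower in marrow-derived than in white in the fit of all probe sets (-1.36, adjusted p = 0.0465), and its other probe sets did not pass there.

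The glutamate carrier Slc25a22 was lower in marrow-derived adipocytes, at 8.41 and 7.97 on the marrow-derived, 9.32 and 9.68 on the white and 10.32 and 10.06 on the brown arrays. It was 2.48-fold below white (-1.31 ± 0.24, adjusted p = 0.0171) and 4.00-fold below brown (-2.002 ± 0.24, adjusted p = 0.00764). The call against white was lost without the LacZ array (adjusted p = 0.0501) or white replicate 2 (adjusted p = 0.0848). That against brown was lost without brown replicate 1 (adjusted p = 0.0653) or brown replicate 2 (adjusted p = 0.0642). The ornithine carrier Slc25a15, needed for the urea cycle in liver, was at 8.47 and 8.51 on the marrow-derived, 9.22 and 9.68 on the white and 9.45 and 9.73 on the brown arrays. It was lower than in white (-0.97 ± 0.22, adjusted p = 0.0312). The Slc25a15 call against white was lost without any array but white replicate 1 (adjusted p = 0.0668 to 0.131). It was lower than in brown (-1.10 ± 0.22, adjusted p = 0.0273). A second, dim probe set of Slc25a15 passed against neither white (-0.61, adjusted p = 0.314) nor brown (-0.99, adjusted p = 0.138) in the fit of all probe sets. The Slc25a15 call against brown was lost without any array but white replicate 1 or white replicate 2 (adjusted p = 0.0657 to 0.164).

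Its paralogue Slc25a2 was at 4.66 and 5.32 on the marrow-derived, 3.56 and 3.79 on the white and 4.68 and 4.47 on the brown arrays. These values are low, and the marrow-derived arrays were above the white ones (1.31 ± 0.27, adjusted p = 0.023). The Slc25a2 call against white was lost without any array but the GFP array or the LacZ array (adjusted p = 0.0605 to 0.088). Slc25a44, which carries branched-chain amino acids into brown fat mitochondria, did not pass with its brightest probe set, at 10.44 and 9.67 on the marrow-derived, 10.66 and 10.98 on the white and 10.62 and 11.52 on the brown arrays. A second probe set at 7.62 and 7.69 on the marrow-derived, 9.44 and 9.71 on the white and 10.07 and 10.48 on the brown arrays was lower in marrow-derived than in white (-1.92, adjusted p = 0.00506) and brown adipocytes (-2.62, adjusted p = 0.00334) in the fit of all probe sets. The glutamate carrier Slc25a18 and the glycine carrier Slc25a38, which feeds haem synthesis, passed in no comparison.

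Of 9 carriers of cofactors, nucleotides, glutathione and iron, 2 were lower than in white and 3 lower than in brown adipocytes, beside 13.6% and 11.7% of all genes. Slc25a33, a pyrimidine nucleotide carrier, was at 6.62 and 6.50 on the marrow-derived, 7.43 and 7.98 on the white and 9.24 and 8.91 on the brown arrays. The 3 groups were apart, with marrow-derived below white (-1.15 ± 0.25, adjusted p = 0.0266), white below brown (-1.37 ± 0.25, adjusted p = 0.0333) and marrow-derived 5.73-fold below brown (-2.52 ± 0.25, adjusted p = 0.00501). The call against white was lost without any array but white replicate 1 (adjusted p = 0.0564 to 0.104), that against brown was lost without brown replicate 1 (adjusted p = 0.0523) or brown replicate 2 (adjusted p = 0.0502), and that of white minus brown was lost without white replicate 1 (adjusted p = 0.101), brown replicate 1 (adjusted p = 0.214) or brown replicate 2 (adjusted p = 0.124).

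Slc25a51, the NAD carrier, was at 11.61 and 11.87 on the marrow-derived, 12.11 and 12.19 on the white and 12.62 and 12.63 on the brown arrays. It was 1.85-fold lower in marrow-derived than in brown adipocytes (-0.89 ± 0.17, adjusted p = 0.0237). The Slc25a51 call against brown was lost without the GFP array (adjusted p = 0.0604), brown replicate 1 (adjusted p = 0.113) or brown replicate 2 (adjusted p = 0.14). Its dimmest probe set was lower against brown (-2.48, adjusted p = 0.003), against white (-1.15, adjusted p = 0.0134) and between white and brown (-1.33, adjusted p = 0.0203) in the fit of all probe sets. Slc25a39, which imports glutathione, was at 11.30 and 11.19 on the marrow-derived, 11.69 and 11.89 on the white and 12.45 and 12.30 on the brown arrays. It was 2.18-fold lower than in brown (-1.12 ± 0.17, adjusted p = 0.0133) and did not pass against white (-0.54 ± 0.17, adjusted p = 0.071). Further probe sets were lower than in white in the fit of all probe sets (-0.75, -1.08 and -1.19, adjusted p = 0.0397, 0.0138 and 0.011). The dimmest did not pass there (-0.17, adjusted p = 0.751). The Slc25a39 call against brown was lost without brown replicate 1 (adjusted p = 0.0869) or brown replicate 2 (adjusted p = 0.0844).

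Slc25a28, an iron importer known as mitoferrin 2, was at 9.26 and 9.63 on the marrow-derived, 10.16 and 10.45 on the white and 10.15 and 10.14 on the brown arrays. It was lower than in white (-0.86 ± 0.21, adjusted p = 0.0352). The Slc25a28 call against white was lost without any array but the LacZ array (adjusted p = 0.0638 to 0.16). Slc25a37, mitoferrin 1, which supplies erythroid cells, did not pass (0.63 ± 0.41, adjusted p = 0.326 against white), nor did Slc25a26, Slc25a32, Slc25a36 and Slc25a40, among them the carriers of S-adenosylmethionine (Slc25a26) and folate (Slc25a32). A second probe set of Slc25a26 was lower in marrow-derived than in white (-1.90, adjusted p = 0.0182) and brown adipocytes (-2.35, adjusted p = 0.0138), and a second one of Slc25a32 was higher than in white (1.04, adjusted p = 0.0175), both in the fit of all probe sets.

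Carriers whose cargo is less settled included genes that set the brown arrays apart. Slc25a48, linked to choline import into mitochondria, was at 3.23 and 3.50 on the marrow-derived, 3.97 and 3.92 on the white and 7.86 and 7.90 on the brown arrays. It was lower in marrow-derived than in brown (-4.51 ± 0.17, adjusted p = 0.00173) and lower in white than in brown (-3.93 ± 0.17, adjusted p = 0.00316), with the low groups near the floor, so no fold is given. The first call held without each of the 6 arrays, and the second was lost without brown replicate 1 (adjusted p = 0.0703) or brown replicate 2 (adjusted p = 0.0573). Slc25a34, an orphan carrier, was at 4.62 and 4.21 on the marrow-derived, 4.53 and 4.76 on the white and 8.41 and 8.22 on the brown arrays. It was 14.9-fold lower in marrow-derived (-3.90 ± 0.21, adjusted p = 0.00206) and 12.8-fold lower in white than in brown adipocytes (-3.67 ± 0.21, adjusted p = 0.00472), while marrow-derived and white arrays overlapped and lay below the array medians. The first call held without each of the 6 arrays, and the second was lost without brown replicate 1 (adjusted p = 0.0703) or brown replicate 2 (adjusted p = 0.0642).

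Slc25a35, a close relative of Slc25a34, was at 7.10 and 7.55 on the marrow-derived, 9.66 and 9.93 on the white and 10.85 and 11.06 on the brown arrays. It was 5.54-fold below white (-2.47 ± 0.23, adjusted p = 0.00412) and 12.4-fold below brown (-3.63 ± 0.23, adjusted p = 0.00229), and white was 2.24-fold below brown (-1.16 ± 0.23, adjusted p = 0.0396). Each call of the marrow-derived group held without each of the 6 arrays, while the last was lost without any array but the GFP array or the LacZ array (adjusted p = 0.0907 to 0.197). Skeletal muscle markers differed between the brown arrays, with a mean over 10 genes of 4.96 on the GFP and 4.82 on the LacZ array, 5.75 and 5.58 on the white and 7.01 and 5.10 on the brown arrays. Of these, 9 were higher on brown replicate 1 than on brown replicate 2, such as the fast troponin Tnnt3 with 8.76 and 4.17. The myosin light chain Myl1 did not follow this, with 9.04 and 8.34 on the marrow-derived, 10.80 and 11.35 on the white and 11.47 and 11.67 on the brown arrays, and was lower in marrow-derived than in white (-2.39 ± 0.31, adjusted p = 0.00798) and brown adipocytes (-2.88 ± 0.31, adjusted p = 0.00634). Of the 10 muscle markers, 3 were lower and 1 higher than in white, beside 13.6% and 12.2% of all genes. Against brown 1 was lower, beside 11.7%. The part of these markers in the levels of the carriers was not tested.

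Slc25a45 was at 8.04 and 8.22 on the marrow-derived, 8.04 and 7.53 on the white and 7.19 and 6.73 on the brown arrays. It was higher in marrow-derived than in brown adipocytes (1.17 ± 0.26, adjusted p = 0.0356). The Slc25a45 call against brown was lost without any array but white replicate 1 or white replicate 2 (adjusted p = 0.0684 to 0.192). Slc25a46, an outer membrane protein of mitochondrial dynamics, was at 11.21 and 11.07 on the marrow-derived, 11.61 and 11.73 on the white and 11.98 and 11.97 on the brown arrays. It was lower than in brown (-0.84 ± 0.16, adjusted p = 0.023) and did not pass against white (-0.53 ± 0.16, adjusted p = 0.063). Its second probe set was lower than in white in the fit of all probe sets (-1.04, adjusted p = 0.0131). The Slc25a46 call against brown was lost without the LacZ array (adjusted p = 0.0633), brown replicate 1 (adjusted p = 0.112) or brown replicate 2 (adjusted p = 0.135). Slc25a47, a liver carrier, Slc25a53 and Slc25a54 passed in no comparison, and Slc25a54 lay near the floor, at 2.76 and 3.02 on the marrow-derived, 2.99 and 3.11 on the white and 2.84 and 3.06 on the brown arrays.

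**Figure D2:**
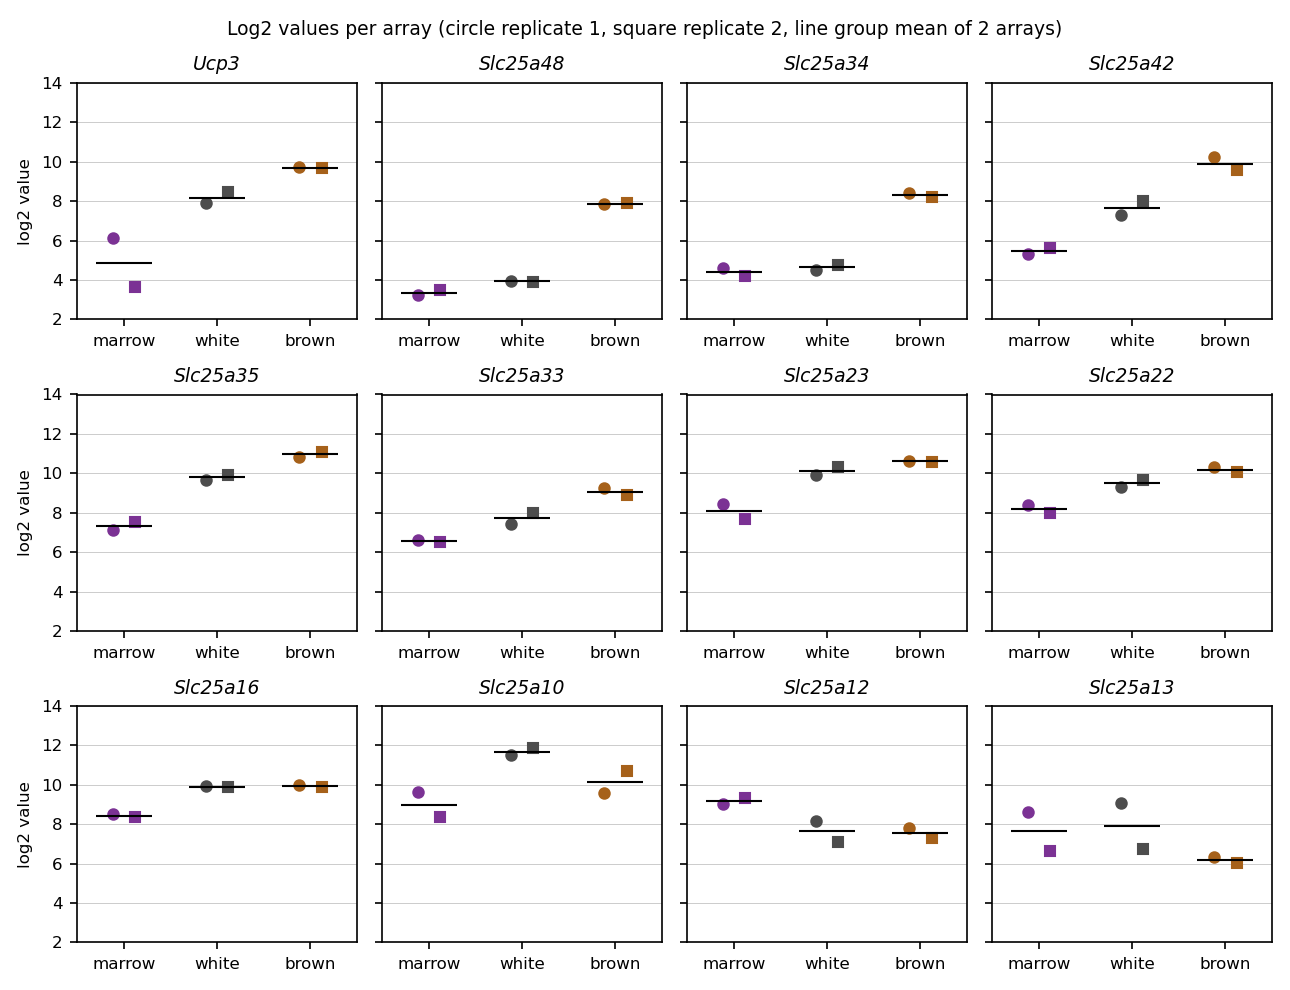
Log2 values on each array for 12 carrier genes, with 1 panel per gene, the 3 groups on the horizontal axis, a circle for replicate 1, a square for replicate 2 and a line at the mean of the 2 arrays. Slc25a48 and Slc25a34 are high on the brown arrays and low on the other 4, Slc25a42, Slc25a35 and Slc25a33 step up from marrow-derived to white to brown, and Slc25a13 splits the arrays within the marrow-derived and white groups.

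The order marrow-derived below white below brown was found in 16 of the 43 genes, where every marrow-derived array lay below every white array and every white array below every brown array, beside 7.95% of all genes. These were Slc25a3, Slc25a4, Slc25a5, Slc25a11, Slc25a22, Slc25a23, Slc25a26, Slc25a33, Slc25a35, Slc25a36, Slc25a39, Slc25a42, Slc25a46, Slc25a48, Slc25a51 and Ucp3. The order is that of the probe set with the highest mean of each gene. Another order was found among the further probe sets of Slc25a3, Slc25a36, Slc25a39, Slc25a42 and Slc25a48. The reverse order was found in 2, Slc25a14 and Slc25a45, beside 4.08% of all genes. Every marrow-derived array was lowest in 23, beside 23.8% of all genes, and highest in 3 (Slc25a12, Slc25a14 and Slc25a45), beside 21%. Every brown array was highest in 17, beside 14.3%, and lowest in 8, beside 14%.

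By the test, 9 genes were lower in marrow-derived adipocytes than in white and also than in brown ones, beside 7.41% of all genes. They were Ucp3, Slc25a15, Slc25a16, Slc25a17, Slc25a22, Slc25a23, Slc25a33, Slc25a35 and Slc25a42. Slc25a12 was the 1 gene called higher in both, beside 5.12% of all genes. At both steps, from brown to white and from white to marrow-derived, 3 genes were lower, Slc25a33, Slc25a35 and Slc25a42, beside 0.875%. Lower than brown in both marrow-derived and white adipocytes were 5 genes, which add Slc25a34 and Slc25a48 to these, beside 2.39% of all genes. Each of these pairs of comparisons shares a group of arrays.

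**Figure D3:**
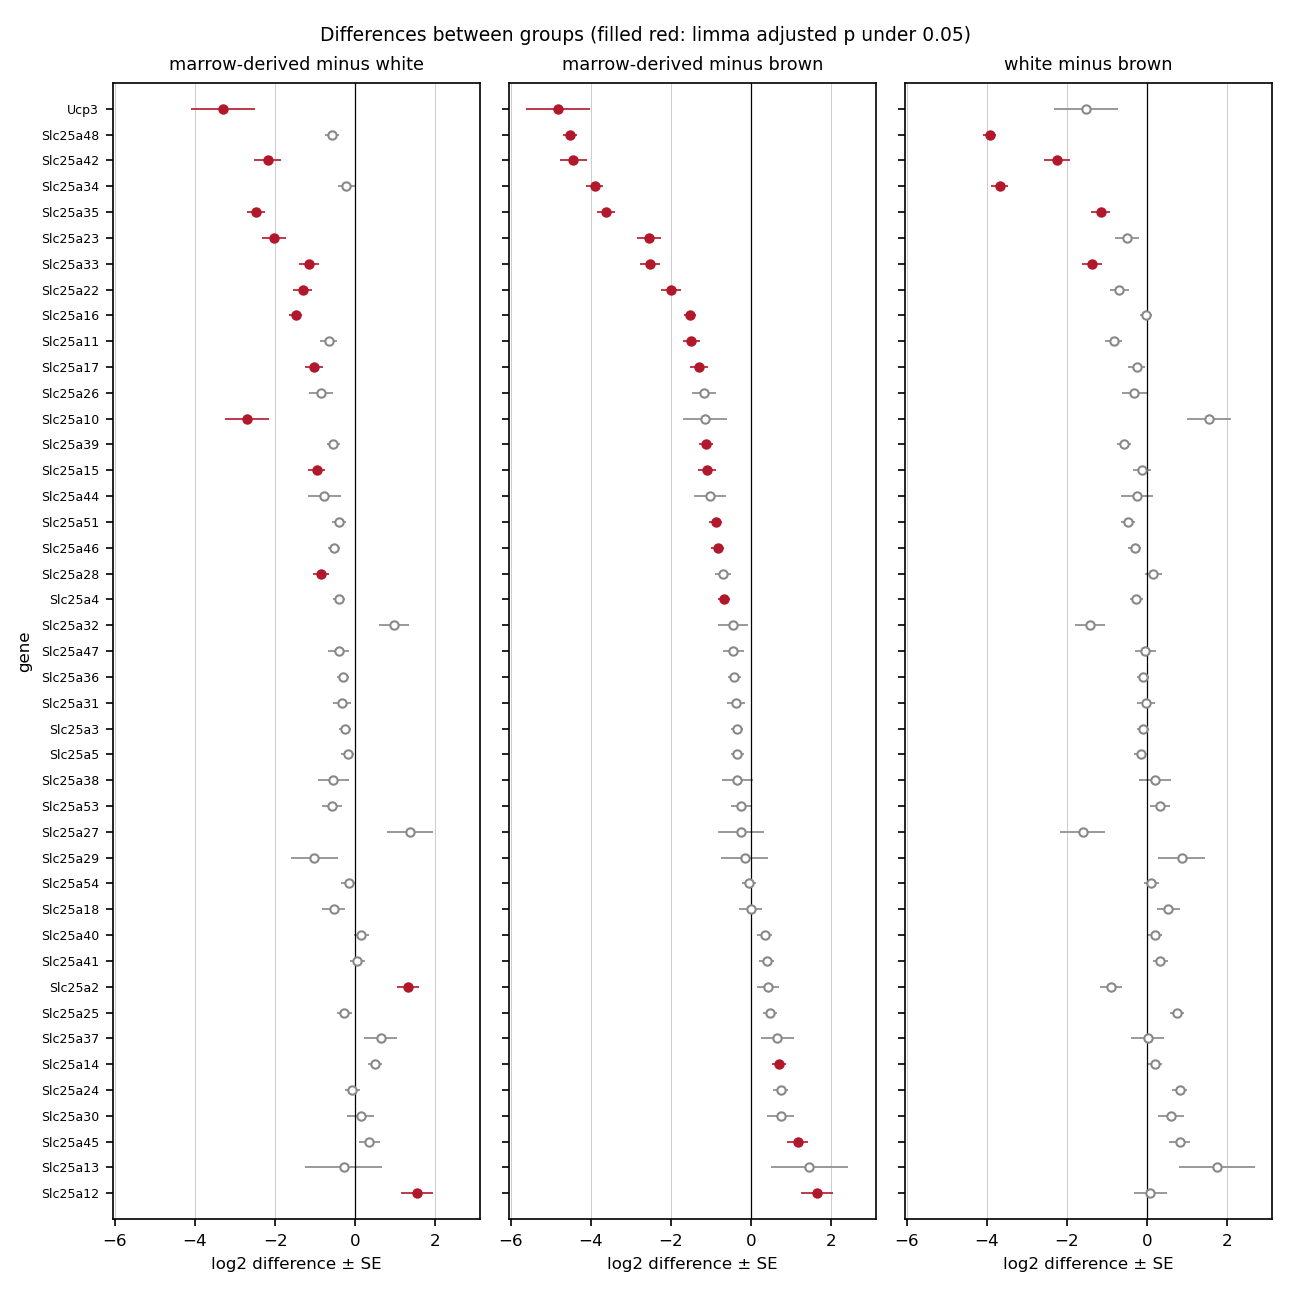
Log2 difference of each of the 43 genes in the 3 comparisons, with limma's standard error as a bar; filled red points have an adjusted p under 0.05 and open grey points do not. Genes are sorted by the difference between marrow-derived and brown adipocytes, which runs from -4.82 for Ucp3 to 1.63 for Slc25a12.

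Several carriers had more than 1 probe set. Among the 19 genes called between marrow-derived and brown adipocytes, 10 had 18 further probe sets, of which 17 had the same direction, 14 of them called. The exception was the dim second probe set of Slc25a17 (0.10, adjusted p = 0.772). Between marrow-derived and white, the 6 called genes with further probe sets had 7, all in the same direction, of which 3 were called.

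Family genes outside the definition were lower in marrow-derived than in brown adipocytes in 4 of 5 cases and than in white in 2, beside 11.7% and 13.6% of all genes. Against brown these were Ucp1 (-7.25 ± 0.98, adjusted p = 0.0101), the citrate carrier Slc25a1 (-3.45 ± 0.50, adjusted p = 0.0119), the carnitine/acylcarnitine carrier Slc25a20 (-1.30 ± 0.16, adjusted p = 0.00837) and the outer membrane protein Mtch2 (-1.80 ± 0.19, adjusted p = 0.00621). Of 14 genes for the import of carriers into the inner membrane, 4 were lower than in white and 8 lower than in brown, beside 13.6% and 11.7% of all genes. Timm10, a small chaperone that guides carriers across the intermembrane space, was at 9.18 and 9.30 on the marrow-derived, 10.75 and 11.06 on the white and 11.54 and 11.50 on the brown arrays (-2.28 ± 0.18, adjusted p = 0.00345 against brown). Its partner Timm9 (-1.85 ± 0.16, adjusted p = 0.00398) and the import channel Tomm40 (-2.06 ± 0.24, adjusted p = 0.00687) were also lower than in brown.

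Of 18 genes for other transport across mitochondrial membranes, 6 were lower than in white and 8 lower than in brown, beside 13.6% and 11.7% of all genes. The sideroflexin Sfxn3 was the 1 gene higher than in brown (1.32 ± 0.33, adjusted p = 0.0453), beside 8.71% of all genes. Another sideroflexin, Sfxn5, was lower than in white (-2.70 ± 0.20, adjusted p = 0.00352) and brown (-3.23 ± 0.20, adjusted p = 0.00217). Mpc1, a subunit of the pyruvate carrier, was lower than in white (-1.82 ± 0.31, adjusted p = 0.014) and brown (-2.57 ± 0.31, adjusted p = 0.00772). Of 6 NADH shuttle enzymes 2 were lower than in white and 4 lower than in brown, beside 13.6% and 11.7% of all genes. Gpd1, the cytosolic enzyme of the glycerophosphate shuttle, was lower than in brown (-3.51 ± 0.56, adjusted p = 0.0156), as was Gpd2, its mitochondrial partner (-2.83 ± 0.32, adjusted p = 0.00687). Got2, which works with the aspartate/glutamate carriers in the malate-aspartate shuttle, did not pass, at 10.36 and 10.73 on the marrow-derived, 10.54 and 10.73 on the white and 10.46 and 10.54 on the brown arrays.

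**Figure D4:**
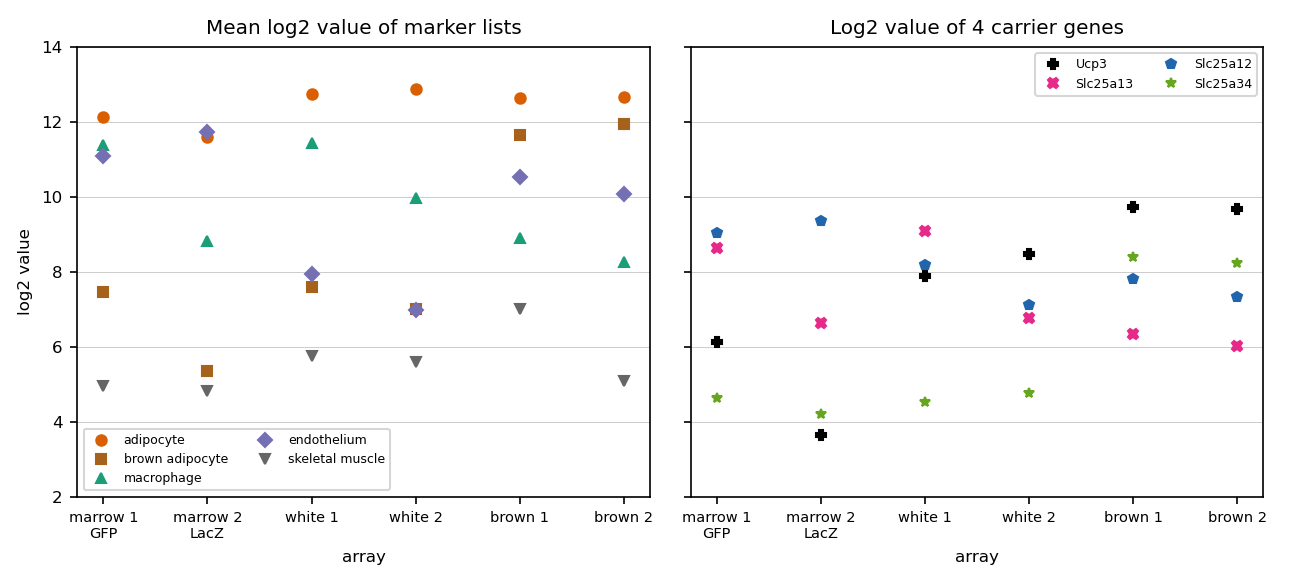
Left, mean log2 value of 5 lists of cell type markers on each of the 6 arrays; right, log2 value of Ucp3, Slc25a13, Slc25a12 and Slc25a34 on the same arrays. Macrophage markers and Slc25a13 are both highest on the GFP array and white replicate 1, and Slc25a34 is high on both brown arrays.

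The genes outside the definition whose values over the 6 arrays were most like those of Ucp3 were Mecr (Pearson r = 0.999), Pygl (Pearson r = 0.998), Thrsp (Pearson r = 0.998), Nop10 (Pearson r = 0.998) and Ssbp1 (Pearson r = 0.997). This is a description over arrays that share groups.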

How the data were processed

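RNA of 6 samples was measured on arrays. The authors deposited log2 values per probe set, which the submitters' processing notes link to RMA and Partek without giving roles; background correction, scaling and summary were therefore done before deposit, and other steps are not given in the sources used here. Of 43057 probe sets, the platform annotation names 1 gene for 33565, several for 857 and none for 8635. Each gene is represented by its brightest probe set on average, which left 17720 genes. One linear model over the 3 groups was fitted with limma 3.58.1 in R 4.3.3, with moderated two-sided tests (3 residual and 2.35 prior degrees of freedom) and Benjamini-Hochberg adjustment over all genes; calls have an adjusted p under 0.05. Folds come from log2 differences and errors are standard errors of the fit. The fit was tested on simulated data. The number of arrays limits precision, and p-values rest on differences among these arrays, part of which may be technical. Values are given for all called genes, for the ADP/ATP and phosphate carriers, and for the genes with the largest replicate gaps; pathway genes are at most 4 called genes of each list, and any other gene was named with its values in view. The members and lists were chosen with earlier results of these data known. Same-numbered arrays were not fitted as pairs, and the labels used here do not say whether they are. Alternatives were scaling, probe set, filter, moderation, block, groups fitted and each array left out.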

Additional observations from a re-analysis of the deposited data

How the results depend on the processing

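Of 37 calls, 36 held with each array centred on its median, 37 with an intensity trend and 33 with the mean of a gene's probe sets. In an ordinary linear model 10 of the 37 held. The higher calls against white (2) became 1 with only genes above the median level or with the replicate block, and 0 in an ordinary linear model or with only the 2 groups compared; without single arrays they ranged from 0 to 3. The lower calls against white (11) became 1 in the ordinary model and 7 with only the 2 groups, and ranged from 3 to 8 without single arrays. The higher calls against brown (3) became 0 in the ordinary model and 1 with the block (0 to 2 without single arrays). The lower calls against brown (16) became 9 in the ordinary model (4 to 15 without single arrays). In white minus brown, the higher calls (0) became 1 with the mean of probe sets, 2 with the filter and 1 with the trend (0 to 1 without single arrays), and the lower calls (5) became 0 in the ordinary model and 9 with only the 2 groups (0 to 9 without single arrays). Over all genes the ordinary model took the lower calls from 2409 to 301 against white and from 2068 to 665 against brown. It took the higher calls from 2170 to 254 and from 1543 to 296, and left 0 calls in white minus brown. With only the 2 groups compared, calls against white over all genes were 1355 higher and 1372 lower. In white minus brown that setting gave 1215 lower calls. The block left 1879 higher calls against white and 1279 against brown over all genes. With an array left out, the lone array is assumed to vary like the other groups. With the next probe set by mean, chosen after seeing the data, 12 of 18 calls held and 5 were lost. The sign turned for Slc25a17 (0.10) and Slc25a27 (1.40) in marrow-derived minus brown and for Slc25a3 (1.63) in marrow-derived minus white. The cause of these changes was not tested.

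The replicate number as a block kept 31 of the 37 calls and gained 1. Deviations of same-numbered arrays correlated at 0.205 (marrow-derived and white), -0.00376 (marrow-derived and brown) and 0.277 (white and brown) over 17720 genes. Of 12 macrophage markers, 12 were higher on replicate 1 in the marrow-derived, 12 in the white and 10 in the brown group. These values do not settle whether same-numbered arrays are pairs, and the reported fit did not pair them. Of the 37 calls, 7 held without each array in turn. Values near the floor or the top of the arrays limit what can be measured.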
